A study of Mus musculus with 12 samples.

Results

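Macrophages and monocytes were followed in the kidney through 31 genes that these cells express, among them the growth factor receptor gene Csf1r, the surface marker gene Adgre1, the scavenger receptor gene Mrc1 and the lysozyme gene Lyz2. The genes were taken by symbol from the 55487 genes of the deposited table, and all 31 were found there and passed the filter on low counts. Whole kidneys were sampled at 30 weeks of age from male B6 mice that carry X-linked Alport syndrome. Of the 12 libraries, 6 came from mice fed a diet with 500 ppm of fisetin, a plant flavonol, and 6 from mice fed the control diet. The labels name Col4a5, the X-linked type IV collagen chain gene, for both diets and give the genotype as HET although the mice are described as male, and they do not describe the variant. No healthy kidney was analysed here, so every comparison is between diseased kidneys on different diets. Each of the 2 batches that the labels name held 3 libraries of each diet. Libraries are called by diet and a number that pairs nothing.

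Macrophages are phagocytes that live in the kidney interstitium, some seeded before birth and some renewed from blood monocytes. The growth factors CSF1 and IL34 keep them alive through the receptor CSF1R, and the transcription factors PU.1, encoded by Spi1, and IRF8 set up their gene programme. In chronic kidney disease they gather around injured tubules and scars, where they clear debris, present antigen and release oxidants and signals. In whole-kidney RNA, more such cells and more RNA of these genes per cell cannot be told apart.

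Total counts per library were 16310214 to 24451821 in fisetin kidneys and 18638748 to 22396857 in control kidneys. The members took 0.0926% to 0.258% of the counts in the fisetin libraries and 0.0949% to 0.186% in the control libraries. Col4a5 averaged 22.2 ± 2.49 CPM in fisetin kidneys and 23.3 ± 0.69 CPM in control kidneys (SD, n = 6 each). CPM is the count per 1000000 counts of the library after TMM scaling. The label of the tissue fitted the markers of its parts, since the proximal tubule gene Lrp2 and the thick limb gene Umod had at least 35182 and 26984 counts in each library. Fisetin 6 stood apart from the other fisetin kidneys with low values of the 31 macrophage and monocyte genes, and control 1 from the other controls with high values of them, so results without each are given beside the main ones. The same libraries had the highest shares of 7SL RNA, an abundant RNA of the signal recognition particle, at 49.2% of TPM in fisetin 6 and 53.1% in control 1, against 40.3% to 44.5% in the other 10, and its part in the results was not tested. Whether every library is its own animal is not in the labels, and the p-values therefore cover the variation among these samples, which may be technical.

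Promoter sequences are shown as a description, since PU.1 binds purine-rich sites near the starts of many myeloid genes. Whether such sites have a part in the levels or the shared variation of the members was not tested. RefSeq start windows on GRCm38.p6 were matched by symbol for 21 of the 31 members, and the 250 bases before each start were searched on both strands. The letters GAGGAA, the core of a PU.1 site, were present in 10 of 21 member windows (47.6%), against 23.1% of the windows of all 27025 genes with one. The longer form GAGGAAGT, which contains that core, was in 0 of 21 and in 2.44% of all windows. A composite PU.1 and IRF form, GGAA and GAAA parted by 2 bases of any kind, was in 1 of 21 member windows, that of Clec7a, and in 2.38% of all. The C/EBP form TTGCNNCAA was in 1 of 21, that of Cybb, and in 1.78% of all, and the AP-1 form TGANTCA was in 4 of 21 (19.0%) and in 6.87% of all. A match describes letters only and is no shown binding site. Below are the 6 windows that hold GAGGAA on either strand and no base of an annotated exon, and that of Cybb, the member with the smallest p between diets, whose window lies inside the longer GENCODE model of the gene but in no annotated exon. They are written 5′ to 3′ along each gene, the last base lies next to the RefSeq start, and capitals mark a match to any of the 5 forms.
Clec7a: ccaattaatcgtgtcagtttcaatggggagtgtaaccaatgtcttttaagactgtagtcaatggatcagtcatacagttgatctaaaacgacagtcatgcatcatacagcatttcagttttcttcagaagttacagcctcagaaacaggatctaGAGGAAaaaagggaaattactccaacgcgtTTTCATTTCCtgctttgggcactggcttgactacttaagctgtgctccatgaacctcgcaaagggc
Ctss: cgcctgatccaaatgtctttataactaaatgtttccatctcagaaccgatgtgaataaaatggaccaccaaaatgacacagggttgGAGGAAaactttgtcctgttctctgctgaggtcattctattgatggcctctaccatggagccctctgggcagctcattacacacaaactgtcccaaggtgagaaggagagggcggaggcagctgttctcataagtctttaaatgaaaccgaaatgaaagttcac
Cd68: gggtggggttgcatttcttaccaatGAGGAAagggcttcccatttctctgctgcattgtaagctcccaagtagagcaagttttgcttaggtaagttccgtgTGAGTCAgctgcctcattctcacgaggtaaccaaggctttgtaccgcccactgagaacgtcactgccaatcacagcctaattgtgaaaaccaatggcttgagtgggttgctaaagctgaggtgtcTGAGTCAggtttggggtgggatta
Itgam: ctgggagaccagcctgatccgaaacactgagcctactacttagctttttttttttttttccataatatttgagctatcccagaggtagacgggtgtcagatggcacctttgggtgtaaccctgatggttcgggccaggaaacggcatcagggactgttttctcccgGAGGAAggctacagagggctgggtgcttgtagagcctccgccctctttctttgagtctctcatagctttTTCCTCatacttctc
Fcgr1: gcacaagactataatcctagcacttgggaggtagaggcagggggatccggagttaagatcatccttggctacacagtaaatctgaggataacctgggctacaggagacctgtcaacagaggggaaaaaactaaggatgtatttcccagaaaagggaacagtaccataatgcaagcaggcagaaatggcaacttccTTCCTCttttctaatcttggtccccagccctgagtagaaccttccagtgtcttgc
Trem2: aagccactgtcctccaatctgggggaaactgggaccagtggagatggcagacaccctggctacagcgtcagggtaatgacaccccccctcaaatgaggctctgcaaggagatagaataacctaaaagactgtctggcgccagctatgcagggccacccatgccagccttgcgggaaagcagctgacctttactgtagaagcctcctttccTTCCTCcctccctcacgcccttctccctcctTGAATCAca
Cybb: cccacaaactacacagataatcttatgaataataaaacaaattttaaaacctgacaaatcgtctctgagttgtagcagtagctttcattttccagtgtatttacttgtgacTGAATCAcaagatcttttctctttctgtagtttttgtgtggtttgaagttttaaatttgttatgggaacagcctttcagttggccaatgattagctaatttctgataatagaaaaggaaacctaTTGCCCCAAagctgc
Their positions were chr6:129472780-129473029 (minus strand) for Clec7a, chr3:95526536-95526785 (plus strand) for Ctss, chr11:69666171-69666420 (minus strand) for Cd68, chr7:128062390-128062639 (plus strand) for Itgam, chr3:96293970-96294219 (minus strand) for Fcgr1, chr17:48346151-48346400 (plus strand) for Trem2 and chrX:9469325-9469574 (minus strand) for Cybb.

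In fisetin kidneys the mean of each of the 31 genes was above that of control kidneys, by 1.09-fold for Cd14 to 1.72-fold for Fabp5, but none of the 31 passed the test over all genes. The median member had a log2 fold change of 0.50 (1.41-fold), whereas the median of all 17890 genes tested was 0.00 and 50.2% of them had a positive fold change. By edgeR's quasi-likelihood test with batch as a term and Benjamini-Hochberg adjustment, 0 of 31 members had an adjusted p below 0.05, against 0% of all genes, and the members' adjusted p-values ran from 0.281 to 0.697. At an unadjusted p below 0.05, 17 of 31 passed, against 14.6% of all genes in either direction and 8.23% that were higher. DESeq2 called 0 of 31, against 0.861% of all genes (0.503% higher), with a smallest adjusted p of 0.0847 for Cybb, and 21 of 31 had an unadjusted p below 0.05, against 15.7%. With limma-voom and sample quality weights, which give less weight to libraries far from their group, 26 of 31 were called and all of these were higher, against 13.9% of all genes called and 6.8% called higher. Itgam, Cd163, Fcgr1, Cd14 and Cd83 were not called there. The members vary together, as described below, so neither the shared direction nor these counts are 31 independent observations.

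**Figure D1:**
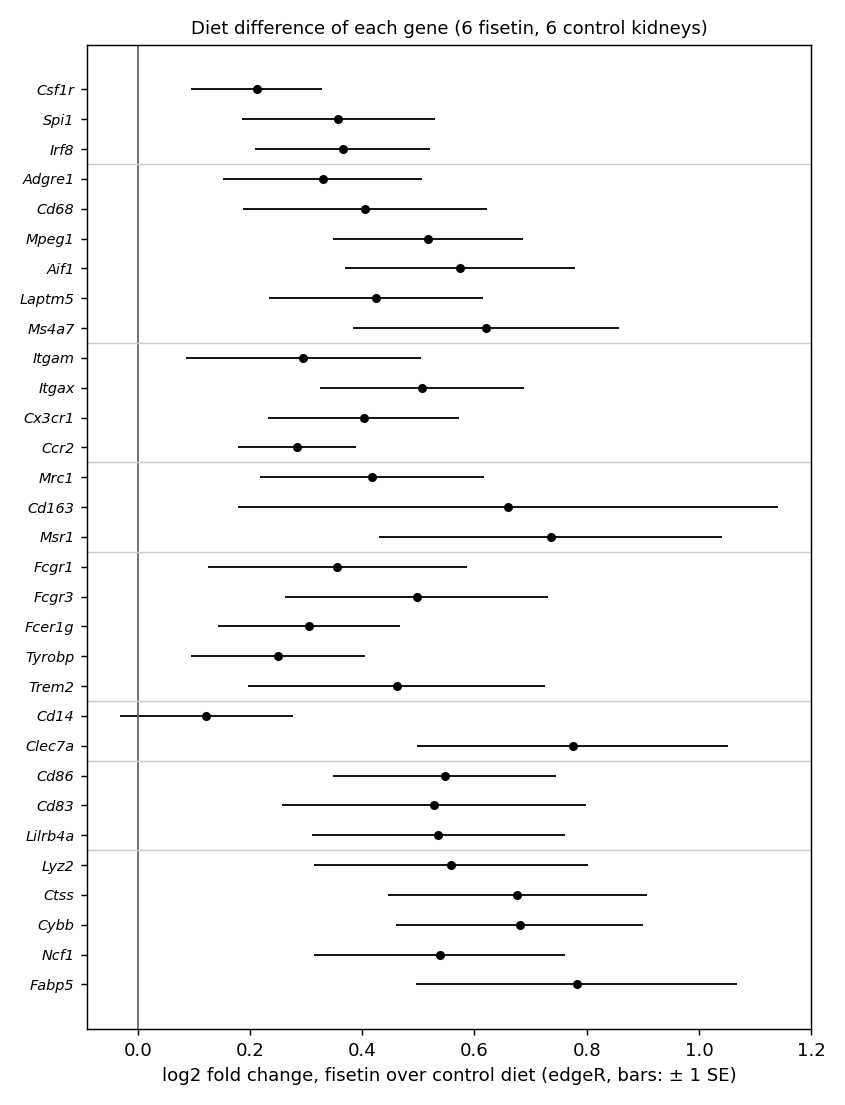
Points give the log2 fold change of each of the 31 genes, fisetin over control diet, from edgeR with batch as a term, and bars are ± 1 SE (6 fisetin and 6 control libraries). Grey lines part the roles. All points lie above 0, between 0.12 for Cd14 and 0.78 for Fabp5.

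The receptor and transcription factors that define the lineage had small differences. Csf1r, on chromosome 18 (61100598 to 61132149, GRCm38), had a lowest, median and highest value of 98.4, 138 and 160 CPM in fisetin kidneys, against 99.4, 114 and 137 CPM in control kidneys. The ranges overlapped over most of their length, and the lowest fisetin kidney, fisetin 6, lay just below the lowest control. Its log2 fold change was 0.21 ± 0.12 (SE; edgeR adjusted p = 0.391). Spi1 had 16.6 ± 3.73 CPM in fisetin kidneys and 13.1 ± 2.83 CPM in control kidneys (SD, n = 6 each; log2 fold change 0.36 ± 0.17). Irf8 had 64.7 ± 14.0 CPM in fisetin kidneys and 50.4 ± 9.79 CPM in control kidneys, at 0.37 ± 0.16 on the log2 scale, and control 1 (69.4 CPM) lay above all but 1 of the fisetin kidneys. Of the 31 fold changes, only that of Cd14 was smaller than that of Csf1r. The exons of Csf1r share 15.1% of their bases with Hmgxb3 on the opposite strand. The strand setting of the counting is not given in the sources used here.

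Identity markers of macrophages had 6 of 6 positive fold changes, with a median of 0.47. Adgre1, which encodes the F4/80 antigen used to stain mouse macrophages, had 32.1, 55.2 and 72.6 CPM (lowest, median, highest) in fisetin kidneys and 33.1, 43.2 and 54.7 CPM in control kidneys. Cd68, a lysosomal membrane protein gene, had 9.38, 23.9 and 26.2 CPM in fisetin kidneys and 12.6, 15.3 and 23.2 CPM in control kidneys. For both genes fisetin 6 was the lowest of all 12 kidneys and 3 fisetin kidneys lay above every control. Mpeg1, the gene of the pore-forming protein perforin-2, on chromosome 19 (12460779 to 12465283), had 110, 189 and 226 CPM in fisetin kidneys and 98.2, 125 and 172 CPM in control kidneys. Its log2 fold change was 0.52 ± 0.17 (edgeR adjusted p = 0.281), and 4 fisetin kidneys lay above every control. Aif1, which encodes the actin-binding protein IBA1 and lies on chromosome 17 (35170991 to 35176068), had 6.49, 11.2 and 13.5 CPM in fisetin kidneys and 4.85, 7.06 and 10.9 CPM in control kidneys (0.57 ± 0.21, edgeR adjusted p = 0.297), and 3 fisetin kidneys lay above every control. Of the others, Ms4a7, a membrane protein of tissue macrophages, stood at 0.62 ± 0.24, and Laptm5, a lysosomal protein of blood cells in general, at 0.42 ± 0.19.

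Integrin and chemokine receptor genes, which serve adhesion and recruitment, were higher in 4 of 4. Itgax, encoding CD11c of dendritic cells and many kidney macrophages, lies on chromosome 7 (128129547 to 128150657). It had 23.5, 48.4 and 52.1 CPM (lowest, median, highest) in fisetin kidneys and 23.4, 30.8 and 41.8 CPM in control kidneys. All fisetin kidneys except fisetin 6 lay above every control, which held for 1 of the 31 members and for 1.79% of all genes. The log2 fold change was 0.51 ± 0.18 (edgeR adjusted p = 0.300). Itgam, encoding CD11b of monocytes and neutrophils, had 13.8, 34.7 and 38.5 CPM in fisetin kidneys and 17.9, 25.7 and 34.4 CPM in control kidneys, at 0.30 ± 0.21. Its exons share 68.7% of their bases with the overlapping gene Gm49368 on the same strand, so its level is uncertain, although Gm49368 itself had at most 42 counts in a library. Cx3cr1, the fractalkine receptor gene of resident cells and patrolling monocytes, had 32.7, 61.4 and 74.5 CPM in fisetin kidneys and 35.5, 41.9 and 59.2 CPM in control kidneys (0.40 ± 0.17). Ccr2, which draws monocytes out of the bone marrow, had 38.2, 54.5 and 67.4 CPM in fisetin kidneys and 39.2, 43.2 and 50.5 CPM in control kidneys (0.28 ± 0.10). In both chemokine receptors 3 fisetin kidneys lay above every control and fisetin 6 lay below every control.

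Among the scavenger receptors, Mrc1, which encodes the mannose receptor CD206, had 42.2, 69.8 and 101 CPM (lowest, median, highest) in fisetin kidneys and 42.9, 52.5 and 67.7 CPM in control kidneys, at 0.42 ± 0.20 on the log2 scale, and 3 fisetin kidneys lay above every control. Msr1, the class A scavenger receptor gene, had 7.73 ± 3.76 CPM in fisetin kidneys and 4.64 ± 1.07 CPM in control kidneys (SD, n = 6 each; 0.74 ± 0.31). Cd163, the receptor for haemoglobin bound to haptoglobin, was the scarcest member, with 9 to 63 counts per library. Its fold change of 0.66 carried an SE of 0.48, and only 3 of 6 fisetin kidneys lay above the control mean.

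Fc receptors, signalling adaptors and the receptor gene Trem2 had fold changes between 0.25 and 0.50. Of these, 0 of the 5 had an unadjusted p below 0.05, against 14.6% of all genes. Tyrobp, the adaptor DAP12, had 31.1 ± 7.61 CPM in fisetin kidneys and 26.3 ± 4.63 CPM in control kidneys (0.25 ± 0.16). Fcer1g, the common Fc receptor gamma chain, stood at 0.31 ± 0.16, Fcgr1, the high-affinity IgG receptor, at 0.36 ± 0.23, and Fcgr3 at 0.50 ± 0.23. Trem2, a lipid-sensing receptor that signals through DAP12, had 10.9 ± 3.92 CPM in fisetin kidneys and 7.91 ± 2.54 CPM in control kidneys, and its lowest value, 4.25 CPM, was again in fisetin 6. Of the 75-base stretches of Fcgr3 transcripts, 5.42% also occur in other genes, chiefly Fcgr2b.

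The pattern recognition receptors stood at opposite ends of the list. Clec7a encodes dectin-1, the receptor for fungal glucans, and lies on chromosome 6 (129461591 to 129472779). It had 13.5, 34.7 and 47.3 CPM (lowest, median, highest) in fisetin kidneys and 13.3, 18.4 and 30.5 CPM in control kidneys, a log2 fold change of 0.78 ± 0.28 (edgeR adjusted p = 0.300). Only 3 of 6 fisetin kidneys lay above every control, and fisetin 6 lay among the lowest controls. Cd14, the lipopolysaccharide co-receptor, had 25.8 ± 6.05 CPM in fisetin kidneys and 23.7 ± 3.35 CPM in control kidneys (SD, n = 6 each), at 0.12 ± 0.15, the smallest fold change of the 31. Its 5 other fisetin kidneys lay close together, from 26.5 to 29.8 CPM, and fisetin 6 had 13.7 CPM. The costimulatory genes Cd86 (0.55 ± 0.20) and Cd83 (0.53 ± 0.27) and the inhibitory receptor gene Lilrb4a (0.54 ± 0.23) had like fold changes. Lilrb4a shares 35.3% of its exon bases with neighbours on its own strand, and 39.8% of its 75-base stretches occur in other genes, chiefly Gm49339. Its separate level is therefore uncertain. Gm49339 itself stood at 0.82 ± 0.34.

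Effector genes held several of the larger differences, and 5 of 5 had an unadjusted p below 0.05 and were higher, against 14.6% of all genes in either direction and 8.23% that were higher. Cybb, which encodes the catalytic subunit of the phagocyte NADPH oxidase and lies on the X chromosome (9435252 to 9487771), had 46.3, 91.2 and 121.5 CPM (lowest, median, highest) in fisetin kidneys and 41.1, 53.2 and 85.6 CPM in control kidneys. Its log2 fold change was 0.68 ± 0.22, with an edgeR adjusted p of 0.281. Ctss, the gene of the lysosomal protease cathepsin S that trims the class II invariant chain, on chromosome 3 (95526786 to 95556403), had 88.0, 180.5 and 245 CPM in fisetin kidneys and 77.1, 102 and 167 CPM in control kidneys. Its log2 fold change was 0.68 ± 0.23, with an edgeR adjusted p of 0.290. In each gene 4 fisetin kidneys lay above every control, and fisetin 6 lay within the control range. Lyz2 had 444 ± 146 CPM in fisetin kidneys and 303 ± 71.5 CPM in control kidneys (SD, n = 6 each; 0.56 ± 0.24), and Ncf1, the organiser subunit of the oxidase, stood at 0.54 ± 0.22. Fabp5, a fatty acid carrier, had 21.7 ± 8.80 CPM in fisetin kidneys and 12.9 ± 4.83 CPM in control kidneys, the largest fold change of the 31 (0.78 ± 0.29). Of the 75-base stretches of Lyz2, 5.96% occur in other genes, chiefly Lyz1.

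Compared per transcript length, the members spanned a range of 891-fold in the authors' FPKM, averaged over the 12 libraries. Lyz2 stood highest at 374 ± 146 FPKM (SD, n = 12), followed by Ctss at 138 ± 57.7 and Tyrobp at 108 ± 30.0. Next came Csf1r at 72.0 ± 19.4 and Fcer1g at 61.0 ± 16.5 FPKM. The ranges over the 12 libraries overlapped between Ctss and Tyrobp and between Csf1r and Fcer1g. Within a library, Csf1r lay above Fcer1g in every case, and Ctss lay above Tyrobp except in control 3 and control 4. At the low end were Cd163 at 0.42 ± 0.29, Msr1 at 2.71 ± 1.28, Cd86 at 4.96 ± 1.82 and Fcgr1 at 5.41 ± 1.76 FPKM. Cd86 and Fcgr1 lay within each other's spread, and neither stood above the other in every library.

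**Figure D2:**
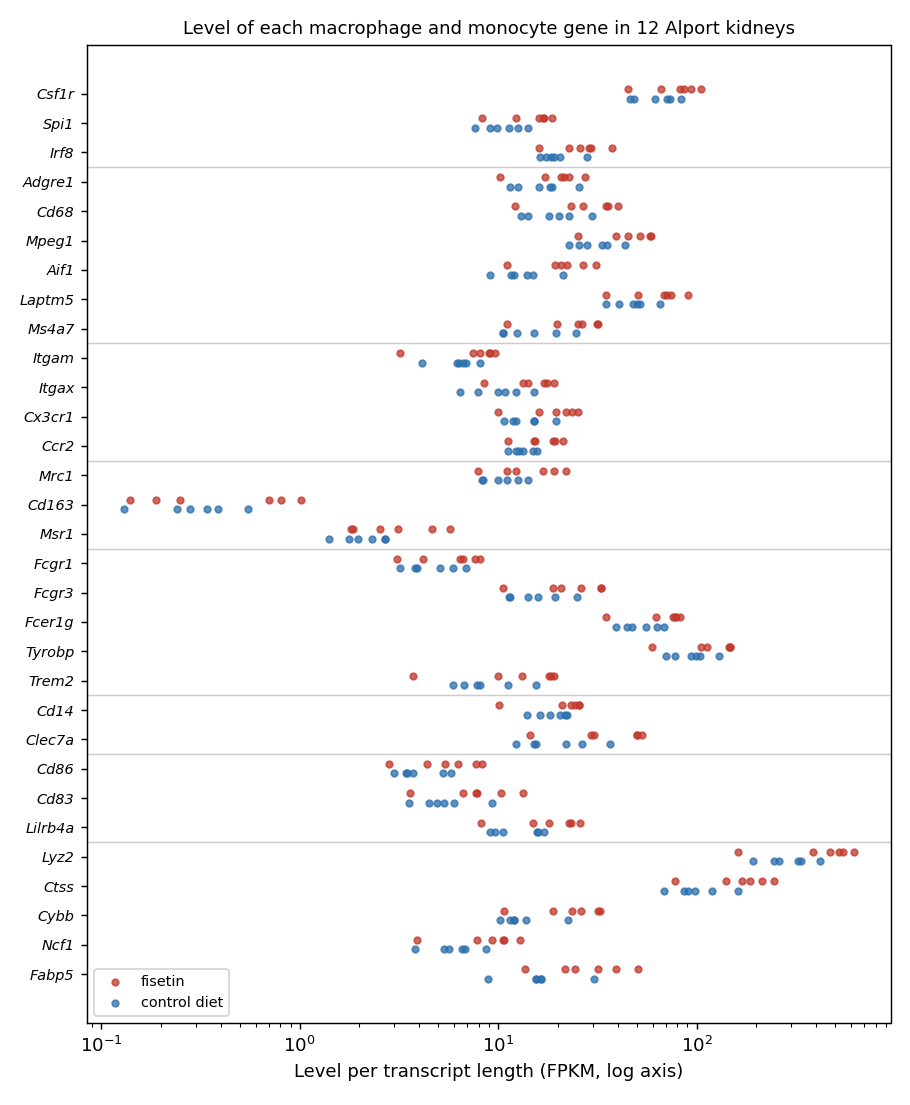
Each dot is the level of a gene in a library in FPKM on a log axis, with fisetin (red) above control diet (blue) for each gene. Lyz2 averaged 374 FPKM over the 12 libraries and Cd163 0.42 FPKM, and the diets overlap in every gene.

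The members varied together from kidney to kidney. Their mean was 4.998 ± 0.475 log2 CPM in fisetin kidneys and 4.57 ± 0.30 log2 CPM in control kidneys (SD, n = 6 each). By kidney it was 5.34, 5.21, 4.78, 5.03, 5.47 and 4.16 log2 CPM in fisetin 1 to 6 and 5.07, 4.67, 4.47, 4.19, 4.64 and 4.39 log2 CPM in control 1 to 6. Fisetin 5 held the highest mean of the 12 kidneys and fisetin 6 the lowest, so the fisetin group contained both ends. Fisetin 6 was the lowest fisetin kidney in 30 of 31 members, the exception being Cd163, against 28.7% of all genes tested. It was the lowest of all 12 kidneys in 16 of 31, against 14.5% of all genes. Control 1 was the highest control in 28 of 31, the exceptions being Ccr2, Cd163 and Cd14, against 27% of all genes. The diets overlapped in 31 of 31 members, and in all genes 0.894% did not overlap. Leaving out fisetin 6 took the median log2 fold change to 0.62, still with 0 of 31 past the threshold by edgeR (adjusted p 0.0615 to 0.363; 0.388% of all genes called; 30 of 31 members and 25.7% of all genes at an unadjusted p below 0.05), and by DESeq2 with 26 of 31 past it, all higher (9.63% of all genes called, 5.14% higher). Leaving out control 1, DESeq2 called 8 of 31, against 3.4% of all genes called and 2.51% called higher. Both libraries had been singled out by their values of these same 31 genes, and leaving out either raised the median fold change. The counts without them are therefore no separate support for a diet difference. Leaving out fisetin 5, the edgeR median was 0.31.

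**Figure D3:**
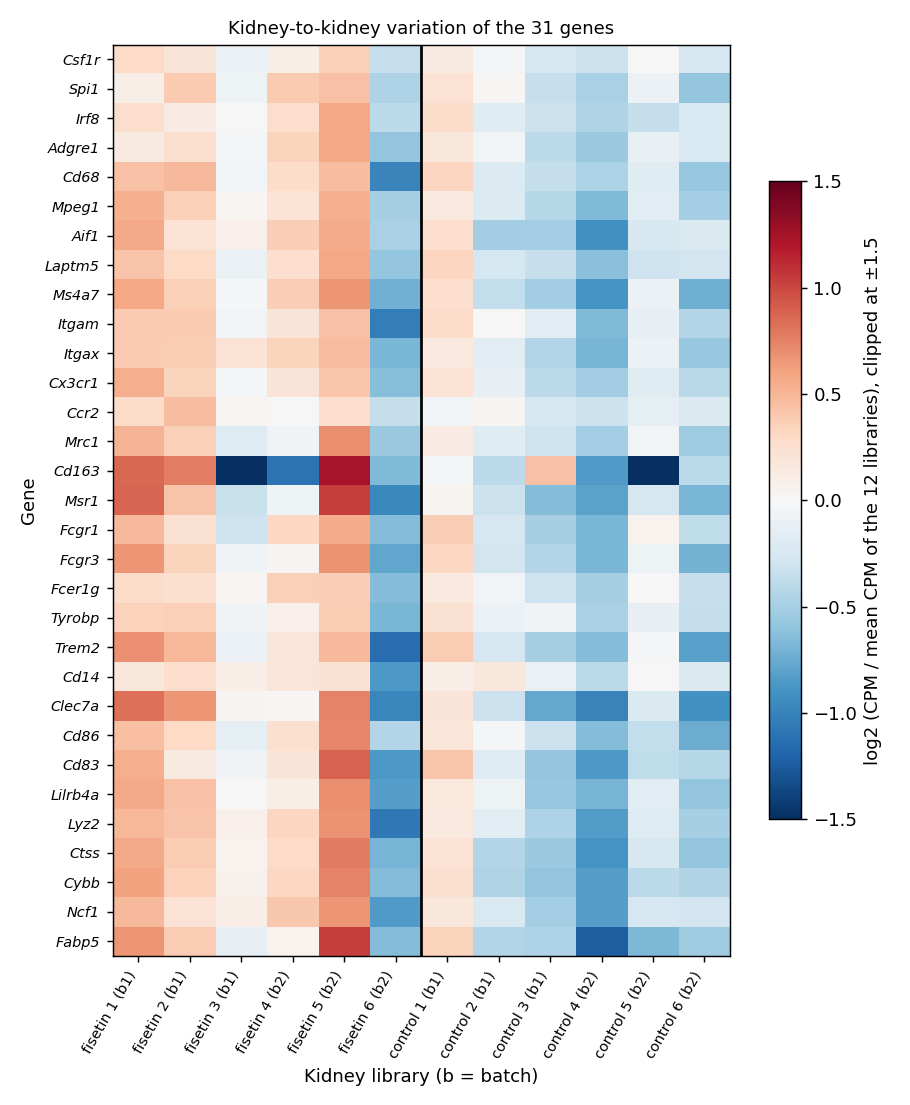
Rows are the 31 genes and columns the 6 fisetin and 6 control libraries, with the batch in brackets, and colour gives log2 of CPM over the gene's mean of the 12 libraries. The columns of fisetin 5 and fisetin 1 are the reddest, with member means of 5.47 and 5.34 log2 CPM, and that of fisetin 6 (4.16 log2 CPM) is as blue as that of control 4 (4.19 log2 CPM).

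With the diet and batch means taken out, the 465 pairs of members had a median Pearson r of 0.91 over the 12 libraries. The lowest pair was Itgax with Cd163 at 0.15, and the highest was Itgam with Lyz2 at 0.99. Without the sparsely counted Cd163 the lowest pair stood at 0.64. Each member was also set against the mean of the other 30, where r had a median of 0.95 and was above 0.9 in 26 of 31, against 4.69% of the 14981 genes with a mean of at least 1 log2 CPM, set against the mean of all members. All points share the libraries, their depth and their scaling, so these are descriptions without a test. The member mean had an r of -0.48 and a Spearman rho of -0.52 with the log2 total count over the 12 libraries.

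The genes differed in how far they moved. The SD between kidneys within diet and batch had a median of 0.42 log2 CPM over the members, against 0.16 over the 14981 genes. It was smallest for Ccr2 at 0.20 and Csf1r at 0.23, and reached 0.59 for Msr1 and 0.91 for Cd163. Across the 31 genes, which share all 12 kidneys, those with the wider spread also had the larger diet difference (r = 0.67, rho = 0.76, and r = 0.75 without Cd163). Clec7a per Csf1r, a ratio of CPM within a kidney chosen after the values were seen, was 0.244 ± 0.0656 in fisetin kidneys and 0.166 ± 0.0343 in control kidneys (SD, n = 6 each). Tyrobp per Csf1r, chosen in the same way, was 0.230 ± 0.0255 in fisetin kidneys and 0.227 ± 0.0231 in control kidneys. Cybb per Csf1r was 0.656 ± 0.101 in fisetin kidneys and 0.481 ± 0.0781 in control kidneys. Lyz2 per Csf1r was 3.235 ± 0.709 in fisetin kidneys and 2.593 ± 0.3045 in control kidneys. Each of these ratios overlapped between the diets.

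**Figure D4:**
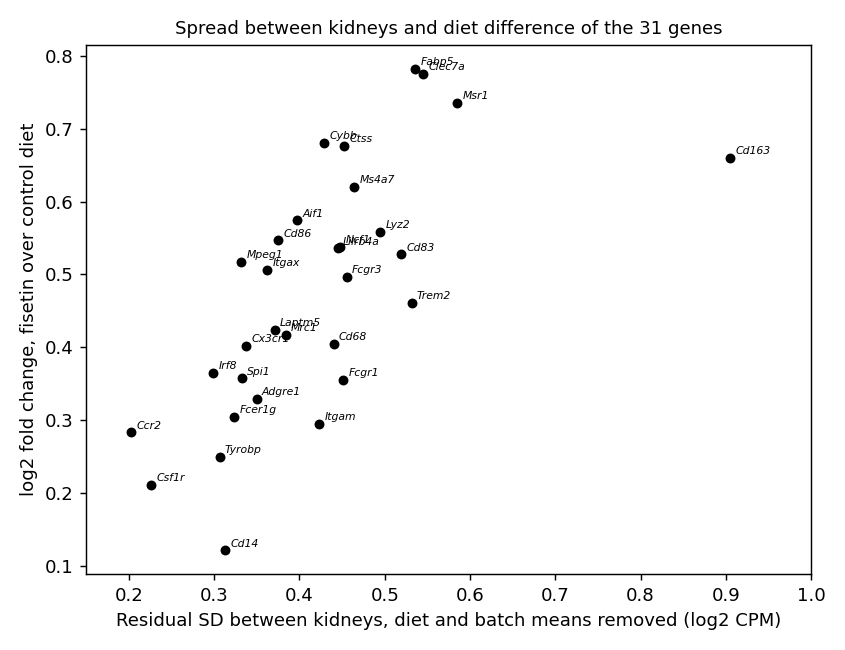
Each point is a gene, with the SD between kidneys after removing diet and batch means on the x axis (log2 CPM) and the log2 fold change, fisetin over control diet, on the y axis. Csf1r and Ccr2 lie at the lower left, with SDs of 0.23 and 0.20, and Msr1 and Clec7a at the upper right, with fold changes of 0.74 and 0.78, and Cd163 stands apart at an SD of 0.91.

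Within batch 1 the member mean was 5.11 ± 0.29 log2 CPM in fisetin kidneys and 4.74 ± 0.30 in control kidneys (SD, n = 3 each), and within batch 2 it was 4.88 ± 0.66 in fisetin kidneys and 4.40 ± 0.22 in control kidneys (n = 3 each). The median log2 fold change was 0.37 in batch 1, with members from 0.12 to 0.79, and 0.56 in batch 2, with members from 0.13 to 1.10. By edgeR 0 of 31 passed in either batch (0.00553% of all genes in batch 1, 0% in batch 2), and at an unadjusted p below 0.05 7 of 31 passed in batch 1 and 3 of 31 in batch 2, against 7.64% and 5.17% of all genes. The edgeR interaction of diet with batch passed in 0 of 31 members, with adjusted p-values of 0.9999 or above, and in 0% of all genes. At an unadjusted p below 0.05 it passed in 0 of 31 members and 2.1% of all genes. DESeq2 also called 0 of 31 members, against 0.00559% of all genes. All 31 had lower means in batch 2 than in batch 1, with a median of -0.23 log2, as did 49.5% of all genes. No member passed for batch (0% of all genes by edgeR, 0% by DESeq2, and 3.38% at an unadjusted p below 0.05 by edgeR; the smallest member adjusted p was 0.892).

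Markers of proximal tubule cells, the most abundant cells of the kidney cortex, ran opposite to the members. Their 8 markers had 8 negative fold changes with a median of -0.38, and a summed level of 5360 to 13720 CPM in fisetin kidneys and 8032 to 14540 CPM in control kidneys. Fisetin 5, with the highest member mean, had the lowest proximal mean (8.31 log2 CPM), and fisetin 6 and control 4 had the highest (9.88 and 9.89 log2 CPM). With diet and batch means removed, the proximal mean and the member mean had r = -0.97 and rho = -0.98 over 12 libraries, and r = -0.93 without fisetin 5 and fisetin 6, the libraries farthest from the median. By edgeR and DESeq2 0 of the 8 passed (1 at an unadjusted p below 0.05 by edgeR, against 14.6% of all genes), and 6, all lower, by limma-voom with quality weights, against 13.9% of all genes. CPM values of a library share a fixed total. All 6 markers of collecting duct principal cells, which reabsorb water under vasopressin, were also lower, with 171.5 to 375.7 CPM in sum in fisetin kidneys and 356.9 to 514.5 CPM in control kidneys. None of these 6 passed by edgeR or DESeq2, 6 had an unadjusted p below 0.05 by edgeR, against 14.6% of all genes, and 6 were called lower by limma-voom with quality weights, against 13.9% of all genes. Their mean had r = -0.83 with the member mean. Of further lists, endothelial and podocyte markers ran opposite to the members over the libraries (r = -0.91 and r = -0.84) and fibroblast markers ran with them (r = 0.85), with median fold changes of -0.07, -0.08 and 0.02. Red blood cell genes summed to 17.0 to 151 CPM in fisetin kidneys, with the 151 CPM in fisetin 6, and 18.9 to 76.6 CPM in control kidneys, and ran opposite to the members (r = -0.88). The part of these cells in the diet difference of the members was not tested.

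**Figure D5:**
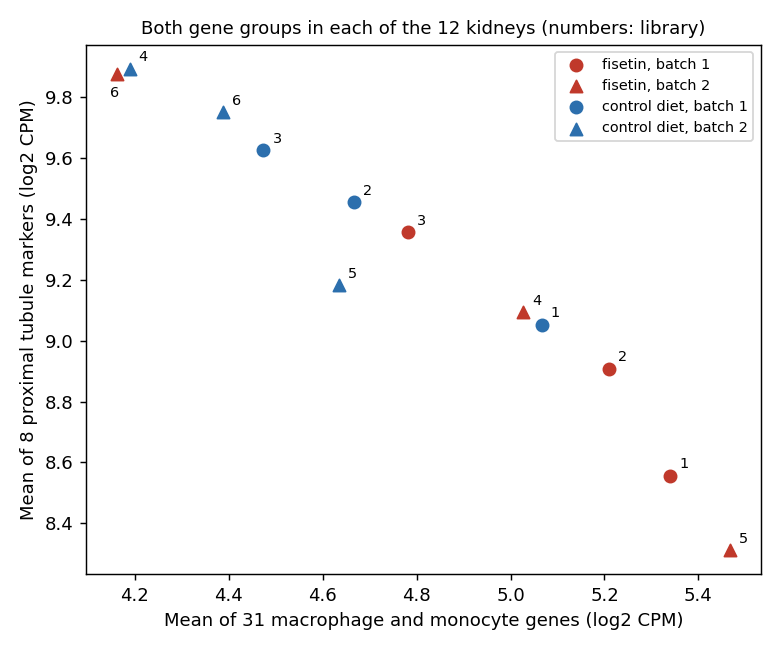
Each point is a kidney library, with the mean of the 31 members on the x axis and of 8 proximal tubule markers on the y axis, both in log2 CPM. Kidneys run from fisetin 6 (4.16 and 9.88) at the upper left to fisetin 5 (5.47 and 8.31) at the lower right, and both diets lie along the same band.

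Most tested genes of other leukocytes had positive fold changes as well. All 5 pan-leukocyte genes had positive fold changes, with a summed level of 254 to 687 CPM in fisetin kidneys and 250 to 479 CPM in control kidneys. Ptprc, the gene of CD45, stood at 0.73 ± 0.25 and Cd53 at 0.69 ± 0.24. B cell markers were higher in 8 of 8 (median 1.18), with sums of 13.8 to 137 CPM in fisetin kidneys and 7.15 to 76.1 CPM in control kidneys. T and NK cell markers were higher in 9 of 9 tested of 11 listed (median 0.71), at 27.4 to 98.3 CPM in fisetin kidneys and 26.2 to 69.55 CPM in control kidneys. The untested genes were the NK cell genes Klrb1c and Ncr1. Klrb1c averaged 0.357 CPM in fisetin kidneys and 0.386 CPM in control kidneys, and Ncr1 0.260 and 0.254 CPM. Dendritic cell markers were higher in 8 of 8 (median 0.25), at 51.4 to 67.8 CPM in fisetin kidneys and 47.6 to 59.4 CPM in control kidneys. By edgeR and by DESeq2, 0 genes of these 4 lists passed, and 3 of 5, 0 of 8, 4 of 9 and 3 of 8, in the order given, had an unadjusted p below 0.05 by edgeR, against 14.6% of all genes. By limma-voom with quality weights 5 of 5, 0 of 8, 4 of 9 and 2 of 8 were called, all higher, against 13.9% of all genes called and 6.8% called higher. Plasma cell markers were higher in 4 of 5 tested of 6 listed (median 0.84), and Xbp1 stood at -0.002 ± 0.12. Their sums were 166.9 to 1098 CPM in fisetin kidneys and 193.5 to 718 CPM in control kidneys. By all 3 tools 0 of these 5 passed, and 0 had an unadjusted p below 0.05 by edgeR, against 14.6% of all genes. Itgax, Irf8, Cd83 and Cd86 are also made by dendritic or B cells, and the part of those cells in their values was not tested. Neutrophil markers, which share Itgam and Cybb with macrophages, summed to 0.872 to 2.03 CPM in fisetin kidneys and 0.910 to 1.69 CPM in control kidneys, and Ly6g, Ngp and Camp had at most 1 count in a library. The tissue mast cell genes Cpa3, Cma1, Mcpt4 and Tpsb2 had at most 10 counts in a library. Kit, the remaining gene of the mast cell list, had 421 to 626 counts (0.03 ± 0.07).

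Genes of the macrophages' surroundings and further macrophage genes were described from lists drawn up by known roles. Of 8 growth factors and chemokines that act on these cells, 7 passed the filter, Csf2 not, and 5 had positive fold changes. Csf1, the main survival factor, had 49.6 ± 9.39 CPM in fisetin kidneys and 43.0 ± 8.61 CPM in control kidneys (SD, n = 6 each; 0.21 ± 0.16), and Il34, the other ligand of CSF1R, stood at -0.07 ± 0.12. Cx3cl1, the ligand gene of the fractalkine receptor, stood at -0.08 ± 0.07. Of the CCR2 ligand genes, Ccl2 stood at 0.04 ± 0.22, Ccl7 at 0.39 ± 0.27 and Ccl12 at 0.52 ± 0.19. The list's smallest p belonged to Ccl12 and to the monocyte attractant gene Ccl8 (21.0 ± 13.1 CPM in fisetin kidneys and 10.1 ± 4.64 CPM in control kidneys, 1.08 ± 0.43).

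Of 13 resident macrophage genes, 10 were tested and 7 had positive fold changes, with a median of 0.24. The complement genes C1qa, C1qb and C1qc, which resident macrophages express strongly, stood at 0.39 ± 0.21, 0.39 ± 0.20 and 0.43 ± 0.22, close to the median member. Timd4, Vsig4 and Marco, which mark resident macrophages of other organs, had at most 8, 2 and 3 counts in a library. Of 7 blood monocyte genes, 5 were tested and 4 had positive fold changes. Plac8, a small protein gene of myeloid and lymphoid cells, stood at 0.37 ± 0.13 and Ly6c2, the marker of inflammatory monocytes, at 0.61 ± 0.26.

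The oxidase partners of Cybb and Ncf1 divided. Ncf4 (0.49 ± 0.27) and Rac2 (0.57 ± 0.32), which blood cells express, had positive fold changes, and Cyba, the membrane partner that kidney cells also express, stood at -0.17 ± 0.08. Of 8 genes of lipid-handling macrophages, 5 had positive fold changes. Gpnmb, a lysosomal glycoprotein gene, had 40.1 ± 19.6 CPM in fisetin kidneys and 19.3 ± 13.2 CPM in control kidneys (1.12 ± 0.42), Ctsd, the cathepsin D gene, stood at 0.14 ± 0.07 and Apoe at 0.45 ± 0.22, while Spp1, Lgals3 and Lpl, which tubules or other cells also express, stood at 0.16 ± 0.15, -0.02 ± 0.16 and -0.43 ± 0.23. By edgeR and by DESeq2, 0 genes of these 5 lists passed over all genes, against 2 of 7, 1 of 10, 3 of 5, 1 of 4 and 1 of 8, in the order described, at an unadjusted p below 0.05 by edgeR, where 14.6% of all genes passed. By limma-voom with quality weights 2, 4, 3, 1 and 3 of them passed, all higher, against 13.9% of all genes called and 6.8% called higher.

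Outside all the lists, the 6 genes whose kidney-to-kidney pattern was most like the mean of the members, among 14981 genes over 12 libraries with diet and batch means removed, were Nckap1l, Cyth4, Iqgap1, Ms4a6d, Esyt1 and Zmynd15. Their Pearson r was 0.99 for each, and their log2 fold changes ran from 0.11 ± 0.11 for Zmynd15 to 0.60 ± 0.22 for Ms4a6d. Nckap1l, the blood cell subunit of an actin-regulating complex, had 60.02 ± 18.4 CPM in fisetin kidneys and 41.6 ± 8.07 CPM in control kidneys (SD, n = 6 each; 0.53 ± 0.21). Iqgap1, a scaffold protein gene of most cell types, averaged 371 CPM in fisetin kidneys and 334 CPM in control kidneys (0.15 ± 0.09).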

How the data were processed

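Messenger RNA from 12 kidneys was sequenced after library preparation with the KAPA mRNA HyperPrep kit, per the labels' protocols. Without versions, fastp, STAR, featureCounts and DESeq2 are listed in the submitters' processing notes, as are builds mm10 and GRCm38. Which annotation and strand setting the counting used is not given. The deposited table holds estimated counts, not scaled for depth, of which 13.9% of values above 0 were not whole (tolerance 1e-06). It also holds TPM and FPKM, which the authors scaled for length and depth, per the file headers. FPKM served only to compare levels between genes, and TPM only in an alternative, since 7SL RNA took 40.3% to 53.1% of it, most in control 1 and fisetin 6. All 36 columns were matched to samples by name. No 2 libraries agreed within counting noise (mean squared difference at least 7.00 times that of counting noise in 66 pairs).

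Estimated counts were rounded. The 17890 genes that filterByExpr kept by diet (minimum count 10) were TMM-scaled and tested in R 4.3.3 with edgeR 4.0.16 (robust glmQLFit, glmQLFTest, two-sided) with terms for batch and diet, at a Benjamini-Hochberg adjusted p of 0.05. Each SE is the fold change over the square root of its F statistic. CPM means and SDs used TMM-scaled libraries, and log2 CPM a prior count of 2. DESeq2 1.42.0, limma 3.58.1 and other settings were alternatives, and DESeq2 without each library was added after the data were seen. The steps were also run on simulated counts with known changes. These counts were drawn for each gene separately, with no batch difference and no shared variation between kidneys. Shared exon bases and shared 75-base stretches were computed on GENCODE M21.

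The 31 genes, the other lists, the motifs and the settings were chosen with earlier results of these data known. Values are given by range for 8 lineage-defining genes and the 6 members with the smallest p, for each further macrophage list the 2 genes with the smallest p are named, apart from some genes not reported here, and outside the lists the 6 genes most like the members' mean. Further list genes (Csf1, Il34, Cx3cl1, Ccl2, Ccl7, C1qa, C1qb, Ly6c2, Ncf4, Rac2, Apoe, Spp1, Lgals3, Lpl and genes with low counts) were named for their known roles after their values were seen.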

Additional observations from a re-analysis of the deposited data

Results flagged for a closer look

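In 62 groups of 6 libraries (31 genes in each diet), 7 held a value far from the other 5 by the gap to its nearest neighbour over the group's range, against about 1 in 20 by chance, and the genes vary together. In the control diet it was control 1, the highest, in 5 genes. It had 69.4 CPM of Irf8 against 42.2 to 50.7 in the other controls, 23.2 CPM of Cd68 against 12.6 to 16.5, and 127 CPM of Laptm5 against 65.5 to 84.4. It had 85.6 CPM of Cybb against 41.1 to 55.2, and 21.9 CPM of Fabp5 against 7.35 to 12.8. With fisetin the far value was that of fisetin 6, the lowest, in 2 genes. It had 23.5 CPM of Itgax against 44.0 to 52.1 in the other fisetin kidneys and 13.7 CPM of Cd14 against 26.5 to 29.8. Control 1 also held the highest summed pan-leukocyte level of the controls (479 CPM), and fisetin 6 the lowest of the fisetin kidneys (254 CPM). These libraries also had the highest shares of 7SL RNA in TPM, 53.1% in control 1 and 49.2% in fisetin 6, against at most 44.5% elsewhere. Red blood cell genes summed to 151 CPM in fisetin 6, the highest of the 12 kidneys, against at most 76.6 CPM in the controls. The cause was not tested.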

How the results depend on the processing

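The count of members past the threshold, 0 by edgeR, was 26 with limma-voom and sample quality weights, and the cause was not tested. The weights ran from 0.36 in fisetin 6 and 0.41 in fisetin 5 to 2.97 in fisetin 2, and control 1 had 0.58. They were set from these same libraries, so the 26 are no separate support for a diet difference. The count was 0 with DESeq2, RLE or total count scaling, no count filter, no batch term, either batch alone, log2(TPM + 1) in limma, and without each library in turn by edgeR (0 to 0). With DESeq2, leaving out each library in turn, it ran from 0 to 26, with 26 without fisetin 6, 8 without control 1 and 0 without each other library. All 31 fold changes were positive under every setting run (31 to 31 when leaving out libraries), and none reversed. The median log2 fold change ran from 0.31 without fisetin 5 to 0.62 without fisetin 6 by edgeR, from 0.30 to 0.62 by DESeq2 without each library, and was 0.37 and 0.56 in batches 1 and 2. With total count scaling it was 0.55. The median r between members was 0.91, and 0.89 without fisetin 5. This r was not computed without fisetin 6 or any other library. No paired analysis was possible because the labels give no replicate numbers that pair libraries across diets. The depth limits Cd163, with 9 to 63 counts per library.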
